A study of Mus musculus with 4 samples.

Results

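The clustered Hox genes were compared between 2 sorted populations of Flk-1 positive mouse cells, by cluster letter and by paralogue number. Members were all genes that the array annotation names Hoxa, Hoxb, Hoxc or Hoxd followed only by digits on a probe set with a single symbol. This gave 33 genes of 18193 in all, and each was read on its probe set with the highest mean. The cells came from TT2 embryonic stem cells in which one Etv2 allele carries a Venus fluorescent reporter. They were differentiated for 5 days, by the sample labels, on a feeder layer of OP9 stromal cells, which come from mouse bone marrow. Flk-1 positive cells, which express the VEGF receptor encoded by Kdr, were sorted into an Etv2-Venus negative and an Etv2-Venus positive population. Each population had 2 arrays of total RNA, numbered 1 and 2, and all 4 arrays thus share the reporter allele, the feeder layer and the Flk-1 gate. The labels name a single line and give no separate cultures, so the spread behind each p-value is that between arrays and could be purely technical.

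Hox genes encode homeodomain transcription factors that give cells their position along the head-to-tail axis. In mouse they lie in 4 clusters, and genes of the same number in different clusters are paralogues of common descent. Within a cluster, low-numbered genes are switched on first and more anteriorly, and high-numbered genes later and more posteriorly, an order called colinearity. In the gastrulating embryo the first Hox genes appear in the primitive streak and in the mesoderm leaving it, under the influence of Wnt, FGF and retinoic acid signals. Hox proteins bind DNA together with Pbx and Meis cofactors.

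The 33 members were 9 of the Hoxa cluster, 9 of Hoxb, 7 of Hoxc and 8 of Hoxd. Other clustered Hox genes were not analysed here as members. Values are log2 expression values, and the medians of the 4 arrays over all probe sets lay between 5.46 and 5.52. Only 9 members (27.3%) reached a mean of 6, against 56% of all genes. These were Hoxb1, Hoxb2, Hoxb3, Hoxb4, Hoxa5, Hoxa7, Hoxc9, Hoxd1 and Hoxd9. The other 24 had means between 2.85 and 5.92, where a real difference would be compressed. Probe sets differ in how brightly they bind, so levels are compared between arrays for a gene and never between genes.

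The labels were checked on the genes of the sort. Etv2, the ETS factor whose allele drives the reporter, measured 12.03 and 11.87 on the negative arrays and, on the positive ones, 12.64 and 12.41, a difference of 0.57 (SE 0.13, limma adjusted p = 0.185). Kdr measured 12.51 and 12.68 against 12.64 and 12.81. The Etv2 arrays did not overlap between populations, and those of Kdr did. Over all genes 22.4% were apart as higher, so the Etv2 arrays are a weak check of the labels. Etv2 read far above the array medians in both populations, so the negative cells are not cells without Etv2 RNA.

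The 2 largest differences were those of Hoxb1 and Hoxd1, the first genes of their clusters, although neither passed the adjusted test. Hoxb1 differed by -1.02, Hoxd1 by -0.74 and Hoxb2 by -0.34 between Etv2-Venus positive and negative cells, while 29 of the 33 members lay within 0.25 log2 units of no difference, as did 81% of all genes. The fourth member outside that range was Hoxd9. None of the 33 passed an adjusted p of 0.05 in limma, higher or lower, and the same was true of all 18193 genes (0% called in each direction). At an unadjusted p under 0.05, 0 members were higher and 2 were lower, Hoxb1 and Hoxd1. Over all genes those shares were 7.07% higher and 4.64% lower, so 2 of 33 members is a share close to that of all genes. Arrays did not overlap between the populations for 2 members as higher and 7 as lower, where 22.4% and 17% of all genes were apart in these directions. Every difference is the mean of the 2 positive arrays minus that of the 2 negative arrays, in log2 units, and SE is its standard error in the limma fit.

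**Figure D1:**
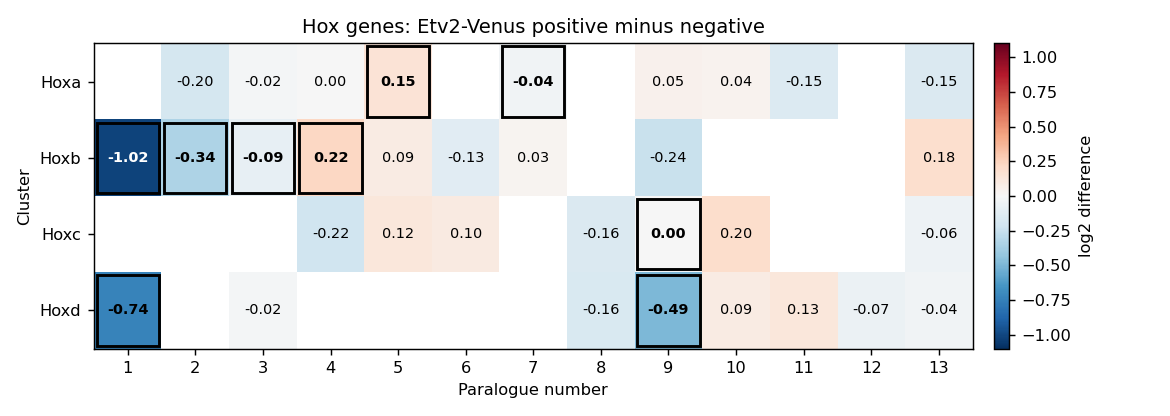
Log2 difference, Etv2-Venus positive minus negative, of each Hox gene by cluster (rows) and paralogue number (columns). Blue is lower and red higher in the positive cells, black frames mark the 9 genes whose mean reached 6, and empty fields are genes absent from the mouse cluster or not analysed here. The darkest fields are Hoxb1 at -1.02 and Hoxd1 at -0.74.

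Hoxb1 and Hoxd1 are the members of paralogue group 1 that were analysed. Hoxb1 is known for its early expression in streak-derived mesoderm and for setting the identity of a hindbrain segment. In the negative cells its arrays read 9.68 and 9.64, against 8.84 and 8.45 in the positive cells. Both positive arrays lay below both negative arrays, and the gap between the groups was wider than the gap within either group. The difference was -1.02 (SE 0.15, 2.02-fold), with a limma adjusted p of 0.107, the smallest among the members. Hoxb1 was the only member past a 2-fold difference, where 0.423% of all genes were lower by that much and 0.599% higher. By unadjusted p it ranked 260 of 18193 genes. Leaving out any array kept it between -0.82 and -1.21.

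Hoxd1, its paralogue in the Hoxd cluster, read 6.26 and 6.60 in the negative cells, against 5.38 and 6 in the positive cells. The arrays again did not overlap, although the lower negative and the higher positive array were close. The difference was -0.74 (SE 0.24, 1.67-fold), with an unadjusted p of 0.0322 and an adjusted p of 0.358 in limma. Without negative array 2 it was -0.57, and without positive array 1 it was -0.43. In both cases the unadjusted p no longer passed 0.05 in limma (0.146 and 0.096). The positive mean of 5.69 was near the array medians, so the size of this difference is uncertain. In RNA from a whole sorted population, fewer cells expressing a gene and less of its RNA per cell cannot be told apart.

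The stretches before the annotated starts of these paralogues are shown because Hoxb1 is known to be maintained through Pbx-Hox sites close to its start, and Pbx and Meis genes are among the genes read below. Each line gives the 250 bases before the start from RefSeq, build GRCm38.p6, which held such a window for 19 of the 33 members. Capitals mark the letters TGATNGA, used here for the Pbx-Hox sites and chosen with the Hoxb1 sequence known. Both genes lie on the plus strand, Hoxb1 at chr11:96365508-96365757 and Hoxd1 at chr2:74762730-74762979.
Hoxb1: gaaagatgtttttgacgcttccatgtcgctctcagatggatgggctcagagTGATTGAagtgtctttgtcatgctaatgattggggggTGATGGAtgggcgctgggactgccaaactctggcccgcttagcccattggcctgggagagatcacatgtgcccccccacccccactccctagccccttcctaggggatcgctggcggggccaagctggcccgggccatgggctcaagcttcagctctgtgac
Hoxd1: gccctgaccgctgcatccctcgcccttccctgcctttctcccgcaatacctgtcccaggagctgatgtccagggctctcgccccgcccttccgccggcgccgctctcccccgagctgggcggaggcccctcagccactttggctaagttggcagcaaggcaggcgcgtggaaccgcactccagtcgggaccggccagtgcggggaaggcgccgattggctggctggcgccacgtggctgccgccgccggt
The Hoxb1 window held the letters at 2 places, which begin 199 and 162 bases before the start. The Hoxd1 window held 0 matches on either strand. Of all 32851 windows of this length, 7.5% held at least 1 match on either strand and 0.43% held 2 or more. Because the letters were chosen with the Hoxb1 sequence known, these shares do not measure how unusual the Hoxb1 window is. Among the members with a window, Hoxa2, Hoxa9, Hoxa10 and Hoxd11 held a match as well. Hoxb2 and Hoxb3 were among the members without a window and were not searched. The other letters searched, on both strands, were TGACAG for Meis (in Hoxa2 and Hoxa3, and 15.9% of all windows) and TTTATG for Cdx (in Hoxa7, Hoxd3 and Hoxd11, and 10.8%). AGGTCA for a retinoic acid receptor half-site was in Hoxb4, Hoxc4, Hoxd3, Hoxd8 and Hoxd10 (14% of all windows), and CCGGAA for ETS factors was in Hoxa10 (12%). A match is only a match of letters, and binding was not measured.

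Paralogue group 2 was read in Hoxb2 and Hoxa2, which pattern the hindbrain and its neural crest. Hoxb2, the neighbour of Hoxb1, read 9.54 and 9.78 in the negative cells, against 9.22 and 9.41 in the positive cells. The groups did not overlap. The gap between them was smaller than the spread within either. The difference was -0.34 (SE 0.13, 1.27-fold), with a limma unadjusted p of 0.0529 and an adjusted p of 0.437. Hoxa2 read 3.98 and 3.88 against 3.83 and 3.64, the largest difference of the Hoxa cluster at -0.20 (SE 0.11). All 4 of its values were far below the array medians, so its size is uncertain.

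Paralogue group 3 showed smaller differences. Hoxb3 read 7.94 and 7.90 against 7.84 and 7.82, arrays that did not overlap but differed by only -0.09 (SE 0.09). Its second probe set, also above 6, gave -0.04. Hoxa3 and Hoxd3 were dim and differed by -0.02 each (SE 0.11 and 0.14). All 7 members numbered 1 to 3 were below 0 on the probe sets used, Hoxa3 and Hoxd3 only at -0.02. Their median was -0.20, beside a median of 0.01 over all genes. The other Hoxa3 probe sets, named after their values were seen, gave -0.05, 0.19 and 0.28, the one at 0.19 with arrays apart as higher. Of these 7 members, 5 had arrays apart in the lower direction, where 17% of all genes did.

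**Figure D2:**
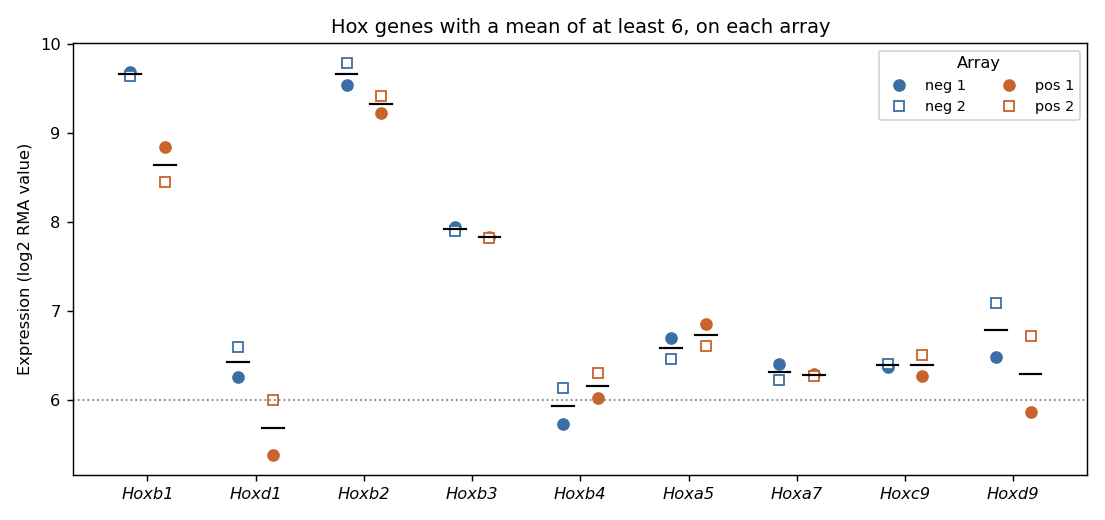
Log2 expression on each array of the 9 Hox genes with a mean of at least 6 (dotted line), ordered by paralogue number. Blue are Etv2-Venus negative and orange positive arrays, filled circles are arrays numbered 1, open squares arrays numbered 2, and black bars are group means. The positive arrays lie below both negative arrays for Hoxb1, Hoxd1, Hoxb2 and Hoxb3 and overlap with them for the other 5 genes.

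Central Hox genes, numbered 4 to 8, pattern the neck and trunk. Hoxb4, which is also known for its effect on blood stem cells, read 5.73 and 6.14 in the negative cells, against 6.02 and 6.30 in the positive cells. The arrays overlapped, and the difference of 0.22 (SE 0.18) was the highest of all members. Its second probe set gave 0.24. The other group 4 members were dim, with Hoxc4, at -0.22 (SE 0.17), the largest difference of the Hoxc cluster. Its arrays read 4.44 and 4.78 against 4.52 and 4.25 and overlapped. Hoxa4 read 2.92 and 2.78 against 2.74 and 2.95, with a difference of 0.00 (SE 0.12). A second Hoxa4 probe set, named after its values were seen, gave -0.26 with arrays apart as lower.

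Hoxa5, known from lung and neck skeleton development, read 6.70 and 6.46 in the negative cells, against 6.85 and 6.61 in the positive cells, a difference of 0.15 (SE 0.14). Its probe sets disagreed. The dimmer one, named after its values were seen, read 5.25 and 4.75 against 4.72 and 4.18, a difference of -0.54 (SE 0.27) with arrays apart in the lower direction. SEs of second probe sets come from a fit over all probe sets. By its name, the brighter one may cross-hybridise with similar transcripts, so the direction for Hoxa5 is uncertain. Hoxa7 read 6.40 and 6.23 against 6.29 and 6.27, a difference of -0.04 (SE 0.10). Hoxb5, Hoxb6, Hoxb7, Hoxc5, Hoxc6, Hoxc8 and Hoxd8 had means under 6 and differences from -0.16 (Hoxd8) to 0.12 (Hoxc5). Among the 12 members numbered 4 to 8 the median was 0.02, and its sign turned with the mean over probe sets (-0.033) and without negative array 2 (-0.055) or positive array 2 (-0.022). None of these 12 had arrays apart in either direction, where 22.4% of all genes were apart as higher and 17% as lower.

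Posterior Hox genes, numbered 9 to 13, act in the lower trunk, limbs and tail. Hoxc9 read 6.38 and 6.41 in the negative cells, against 6.28 and 6.50 in the positive cells, with a difference of 0.00 (SE 0.11). Hoxd9 read 6.49 and 7.09 against 5.86 and 6.72, a difference of -0.49 (SE 0.35, limma adjusted p = 0.699). It is named because it was one of the 4 members furthest from 0. Its groups overlapped, and in each population the array numbered 2 was the higher by more than the difference between the populations. The 12 other posterior members had means under 6 and lay between -0.24 (Hoxb9) and 0.20 (Hoxc10). Hoxb13 and Hoxd11 had arrays apart as higher, at 0.18 and 0.13, and Hoxa13 and Hoxb9 as lower, at -0.15 and -0.24. These 4 genes were all dim. The median of the 14 posterior members was -0.02. It turned above 0 with arrays centred on their medians (0.018), with quantile normalization (0.012) and without negative array 1 (0.017) or positive array 2 (0.0037).

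**Figure D3:**
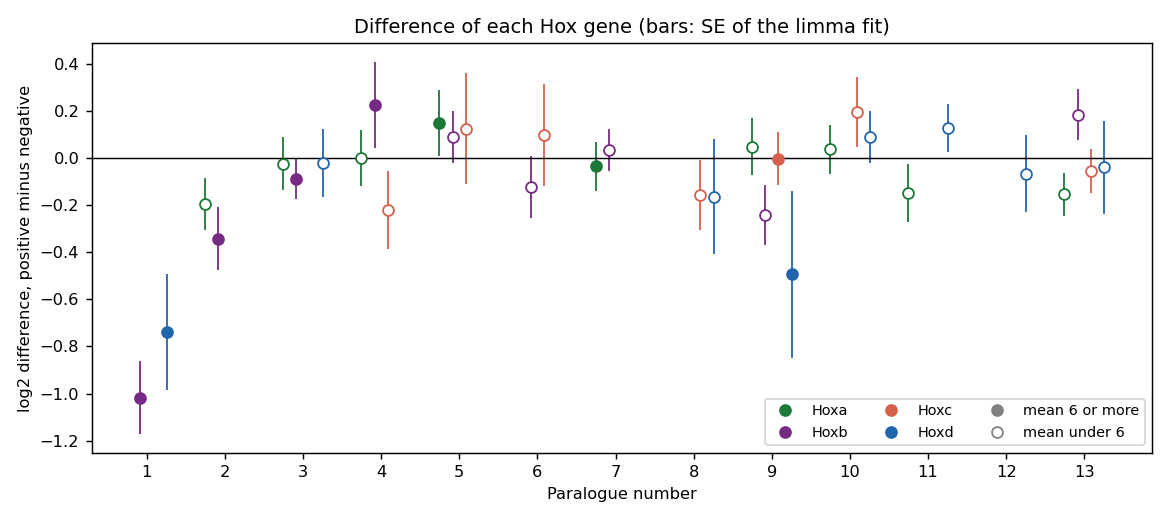
Log2 difference of each Hox gene against its paralogue number, with colours for the clusters and bars for the SE of the limma fit. Filled points have a mean of at least 6 and open points a lower mean. Both group 1 genes lie lowest, Hoxb2 and Hoxd9 follow at -0.34 and -0.49, and the remaining genes lie within 0.25 of 0.

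By cluster, the medians were -0.02 for Hoxa, -0.09 for Hoxb, 0.00 for Hoxc and -0.05 for Hoxd. The Hoxa median turned above 0 with arrays centred on their medians (0.0153) and with quantile normalization (0.00298), as did that of Hoxc (0.036 and 0.040). The range within a cluster was widest for Hoxb, from -1.02 to 0.22, and for Hoxd, from -0.74 to 0.13. In Hoxb the differences followed the gene order over the first 4 genes, from -1.02 for Hoxb1 through -0.34 and -0.09 to 0.22 for Hoxb4. Later Hoxb genes, all dim, did not continue it, with Hoxb5 at 0.09, Hoxb6 at -0.13, Hoxb9 at -0.24 and Hoxb13 at 0.18. Across the 33 genes the correlation of the difference with paralogue number was r = 0.38 (Spearman rho = 0.26). These values describe genes read on the same 4 arrays, which are not independent replicates. In all, 21 members were below 0 and 12 above it, where 9630 of all 18193 genes were above 0. Several of the 21 lay close to 0, such as Hoxa4 at -0.0006, Hoxc9 at -0.003 and Hoxd3 at -0.02. The median of the 33 was -0.04. With arrays centred on their medians it was 0.00, where the median of all genes was 0.05.

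Whether Hoxb1 changed by a different amount than its neighbours was read within each array, on 4 pairs of genes chosen after their values were seen. Hoxb1 minus Hoxb4 was 3.95 and 3.50 in the negative cells, against 2.82 and 2.15 in the positive cells, an unequal change of -1.24. Against Hoxb3 it was -0.93 and against Hoxb2 -0.68. In each of these 3 pairs the arrays did not overlap, with an exact permutation p of 0.333, two-sided, which is the smallest that 2 arrays against 2 can give (0.444 adjusted over the 4 pairs). Hoxd1 against Hoxd9 gave -0.24 with overlapping arrays (exact permutation p = 0.667).

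Several members have more than 1 probe set, and these often disagreed. Of 11 such genes, 7 had probe sets with differences of opposite sign, and Hoxb3 was the only one whose second probe set also had a mean of at least 6. Those with 1 sign throughout were Hoxa4, Hoxb3, Hoxb4 and Hoxd13. For Hoxa4 this sign rests on a value of -0.0006 on the probe set used, beside -0.26 on the second. By its name, the Hoxa4 probe set used may also cross-hybridise with similar transcripts. Hoxb1, Hoxb2, Hoxd1 and Hoxd9 each rest on 1 probe set. A second Hoxd13 probe set, named after its values were seen, differed by -0.34 (SE 0.10) with arrays apart at levels between 4.22 and 4.64, where the one used gave -0.04. The brighter probe set that reads Hoxd3 and Hoxd4 together, and so belongs to neither, read 6.27 and 6.05 against 6.31 and 6.11. Probe sets of the antisense genes Hoxb5os, Hoxd3os1 and Hoxa11os all had overlapping arrays.

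Genes that act on or with the Hox clusters were read from lists, and none of their members passed an adjusted p of 0.05 in limma. Their counts at an unadjusted p under 0.05 are read against 4.64% of all genes lower and 7.07% higher. The retinoic acid list held Crabp1, with the lowest difference of these lists. Of 16 genes measured, 4 were lower at an unadjusted p under 0.05 and 0 higher, with a median of -0.12. Aldh1a2, the enzyme that makes retinoic acid in the mesoderm, read 8.29 and 8.42 in the negative cells, against 7.31 and 6.85 in the positive cells, a difference of -1.27 (SE 0.18, limma adjusted p = 0.0962). Crabp1 and Crabp2, which carry retinoic acid inside the cell, differed by -1.52 (SE 0.26) and -1.11 (SE 0.19). Rarg, a retinoic acid receptor, differed by -0.36 (SE 0.12). All 4 had arrays apart. Averaged over its probe sets Rarg differed by only -0.14 (unadjusted p = 0.213 in limma). Of the 16 genes 5 lay above 0, with Dhrs3, a retinaldehyde reductase named after its values were seen, at 0.38 (SE 0.17) and arrays apart as higher. Cyp26a1, which breaks retinoic acid down and is named outside the rule for that role, read 13.17 and 13.01 against 13.25 and 12.99, with overlapping arrays.

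Of 8 cofactor genes of the TALE homeodomain class, 3 were lower and 0 higher at an unadjusted p under 0.05, with a median of -0.12. Meis2 read 9 on both negative arrays against 8.24 and 7.97, a difference of -0.90 (SE 0.12, limma adjusted p = 0.0955). Pknox2 and Pbx3 differed by -0.60 (SE 0.18) and -0.42 (SE 0.11), and Meis3 by -0.24 (SE 0.10). Averaged over its probe sets Pknox2 differed by only -0.16 (unadjusted p = 0.255 in limma). The other 4 cofactors lay above 0, and Meis1 at 0.20 (SE 0.14) and Pbx4 at 0.22 (SE 0.10), named after their values were seen, had arrays apart as higher. Cdx2, a caudal-type factor that binds Hox clusters, read 7.65 and 8.37 against 6.98 and 7.54. Its arrays were apart by a small gap, with a difference of -0.75 (SE 0.31) and an adjusted p of 0.468 in limma. Without negative array 2 it was -0.39, and without positive array 1 it was -0.46. Cdx1 and Cdx4 were dim.

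Among 10 posterior growth signals and timing genes, 2 were lower and 0 higher, with a median of -0.30. Sall4 and Lin28a, known from pluripotent and early embryonic cells, differed by -0.79 (SE 0.13) and -0.36 (SE 0.11). Nr6a1, a nuclear receptor of trunk development, differed by -0.36 (SE 0.15). Fgf8, a growth factor of the streak, read 9.49 and 8.07 against 8.02 and 6.82, a difference of -1.36 (SE 0.61) with a wide spread in both populations. Without negative array 1 it was -0.65, and without positive array 2 it was -0.76. Averaged over its probe sets Nr6a1 differed by -0.14. Of 21 Polycomb and Trithorax genes, which keep Hox clusters silent or active, 1 was lower and 1 higher, with a median of -0.02. These counts are about the share of all genes. The genes were Cbx2 at -0.35 (SE 0.09) and Ezh1 at 0.37 (SE 0.12). Averaged over probe sets they differed by -0.21 and 0.12, and neither reached an unadjusted p of 0.05 in limma. Kdm6b and Phf19 differed by -0.24 (SE 0.11) and 0.28 (SE 0.15), and by -0.43 and 0.16 over their probe sets. Without positive array 1, Phf19 differed by 0.10.

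Genes that flank the clusters lay on both sides of 0. Of 23 measured, 2 were higher and 0 lower at an unadjusted p under 0.05, with a median of -0.01 and a range from -0.53 to 0.48. This is near the share of all genes, and the higher count was 0 without negative array 1, positive array 1 or positive array 2. The lowest was Evx1, a homeobox gene next to Hoxa13 that is also a streak marker, which read 9.99 and 9.35 against 9.32 and 8.97. Without negative array 1 its difference was -0.21. Lnpk, beside the Hoxd cluster, differed by 0.28 (SE 0.10) and the dim Jazf1, named after its values were seen, by 0.48 (SE 0.14). Smug1 differed by 0.20 (SE 0.11) and Snx10 by 0.17 (SE 0.09), neither at an unadjusted p under 0.05. Averaged over their probe sets Lnpk and Snx10 each differed by 0.027.

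**Figure D4:**
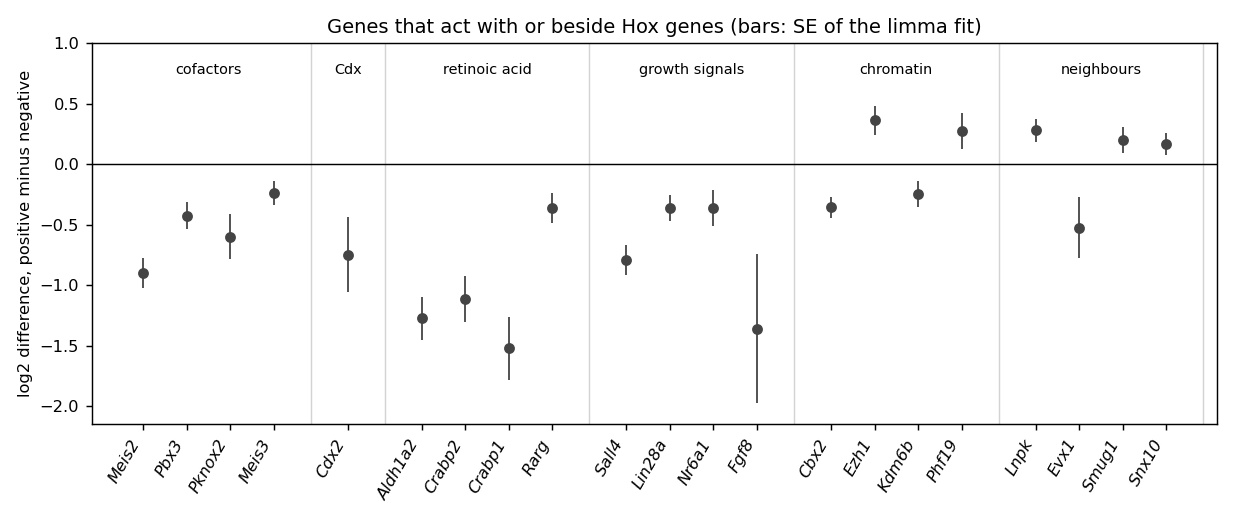
Log2 difference, Etv2-Venus positive minus negative, of up to 4 genes per list with the smallest unadjusted p, chosen among genes whose brighter population averaged 6 or more. Bars are the SE of the limma fit. The cofactor, Cdx, retinoic acid and growth signal genes shown lie below 0, though other members of these lists lie above it, and the chromatin genes and neighbours lie on both sides.

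Marker counts in this and the next paragraph are read against 4.64% of all genes lower and 7.07% higher at an unadjusted limma p under 0.05. Markers of other mesoderm had differences in the direction of Hoxb1. Of the streak and nascent mesoderm markers, 9 of 9 lay below 0, with a median of -1.02, where 9630 of all 18193 genes lay above 0. Of these streak and nascent mesoderm markers, 4 (Mesp1, Lhx1, Eomes and Mesp2) reached an unadjusted p under 0.05 in limma. Their summed level (log2 of the summed linear values) ranged from 13.5 to 14.04 in the negative and from 12.47 to 12.88 in the positive cells. Lateral plate markers were lower at that p in 9 of 10, with sums of 13.2 to 13.25 against 12.42 to 12.46. Paraxial markers were lower at that p in 3 of 8 (Dll1, Dll3 and Tbx6), with sums of 11.31 to 11.49 against 10 to 10.12. Endothelial markers were higher at that p in 9 of 10, with sums of 11.48 to 11.59 against 12.53 to 12.57. Blood progenitor markers were higher in 5 of 9 and lower in 1 (Ptprc), with sums of 12.74 to 12.83 against 13.66 to 13.72. Ptprc read only 3.30 and 3.39 against 3.12 and 2.97, far below the array medians, so its difference is uncertain. No marker has a true zero on this scale, and the part of these cell states in the Hox differences was not tested.

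Neural markers were read because Hoxb1, Hoxb2 and the Crabp genes are also expressed in the hindbrain. They had 1 of 8 lower (Otx2), a median of 0.03 and sums of 10.44 to 10.9 against 9.92 to 10.41. The neural list did not move as 1 set. Arrays were apart as lower for Otx2 (-1.57) and Sox2 (-0.71), and as higher for Sox1 (0.35), Tubb3 (0.45) and Pax6 (0.16). Over all genes 17% were apart as lower and 22.4% as higher. Egr2 differed by -0.11 with overlapping arrays. Undifferentiated stem cell markers had 2 of 7 lower (Tdgf1 and Pou5f1) and sums of 12.45 to 12.92 against 11.58 to 11.91. Markers of the OP9 feeder and fibroblasts had 3 of 17 lower and 0 higher, Cxcl12, Vcam1 and Col1a1, with a median of -0.14. Their sums were 12.24 and 11.29 in the negative cells, against 12.08 and 10.87 in the positive cells, higher on the arrays numbered 1 in both. Hoxd9 and Hoxd1 were higher on the arrays numbered 2 in both, as were Hoxb2, Hoxb4, Hoxd3 and Hoxd8 among other genes. Hoxa5 and Hoxb3 were higher on the arrays numbered 1 in both. Whether feeder or neural cells had a part in any Hox value was not tested.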

How the data were processed

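Total RNA of 4 samples was read on a 3' expression array. The deposited values are log2 expression per probe set. The submitters' processing notes name RMA and R 2.8.0, and the log base was inferred from the range, 2.16 to 14.93. RMA corrects background and normalizes between arrays, which takes out any change shared by all genes and compresses low values. The genome build behind the probe sets is not given in the sources used here.

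Probe sets were named from the platform annotation. Control probe sets were dropped, and each gene with a single symbol was read on the probe set of highest mean over the 4 arrays, which left 18193 genes. The populations were compared with limma 3.58.1 in R 4.3.3 over all of them, with the group as the only term, two-sided, and Benjamini-Hochberg adjustment at 0.05. The fit had 2 residual and 2.68 prior degrees of freedom. The step was tested on simulated arrays with independent noise and no effect of the array number. That test does not cover the correlation between arrays of the same number that is given below. No set test was run, and lists are given by counts and medians. Precision is limited by the number of arrays.

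The Hox members, gene lists, tests and alternatives were chosen with earlier results of these data known. Values on every array are given for Hox genes with arrays apart, a difference of at least 0.3 and a brighter population averaging 6 or more, for the largest difference of each cluster and for their paralogues. The remaining genes with a mean of at least 6 were added to these. Of each list, up to 4 genes with the smallest p are named among those as bright. List entries without a single-symbol probe set were not used here. Alternatives were other ways to combine probe sets, a filter on low values, a variance trend, other normalizations, a block for the array number, and each array left out in turn. Figures were drawn with matplotlib 3.10.9.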

Additional observations from a re-analysis of the deposited data

How the results depend on the processing

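Under all alternatives run, 0 Hox genes were called higher or lower by limma adjusted p, and Hoxb1, Hoxd1 and Hoxb2 kept their direction. Hoxb1 stayed at an unadjusted limma p under 0.05 in every alternative, and Hoxd1 in all but those without negative array 2 or positive array 1. With the mean over probe sets the Hoxa median was -0.13. With only genes of mean 6 or more, and so fewer genes, the medians were 0.15 for paralogues 4 to 8, -0.25 for 9 to 13, 0.0564 for Hoxa, -0.22 for Hoxb and -0.62 for Hoxd. This filter let in Hoxd1 and Hoxb4 only through their higher population. Leaving out each array gave 1 (without negative array 2 or positive array 1) to 3 Hox genes lower at an unadjusted p under 0.05. By the same p, TALE cofactors lower numbered 1 (without negative array 1 or positive array 2) to 3, growth signals 1 (without positive array 2) to 4, and retinoic acid genes 3 to 5. Polycomb and Trithorax genes numbered 0 lower (without negative array 2 or either positive array) to 1, and 0 higher (without positive array 1 or either negative array) to 2. Rarg also missed an unadjusted p of 0.05 with quantile normalization and with arrays centred on their medians. Leaving out each array gave Hoxa medians from -0.12 (without negative array 2) to 0.0502 (without negative array 1). Hoxb medians ran from -0.10 to 0.0257 (without positive array 1). A group left with 1 array was assumed to vary like the other. The share of all genes at an unadjusted p under 0.05 with an array left out is not given here. The counts with an array left out are therefore not read as a result about the Hox genes or these lists. Over all genes 0 were called, against 112 with a variance trend and 79 among genes of mean 6 or more, with no Hox gene in either. The cause was not tested. Hoxb2 passed an unadjusted p of 0.05 in 5 alternatives, among them the variance trend (0.0403), quantile normalization run again (0.0386) and without negative array 1 (0.0418).

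With the array number as a replicate block, 1 Hox gene was higher (Hoxb4) and 4 were lower (Hoxb1, Hoxb2, Hoxd1 and Hoxd9) at an unadjusted p under 0.05 in limma, and 0 passed when adjusted. In the lists the block gave 5 growth signals lower (2 without it), 2 Cdx genes (0), 5 retinoic acid genes (4), 4 cofactors (3), 2 Polycomb and Trithorax genes (1) and 2 neighbours (0). Higher were 1 cofactor (0), 1 retinoic acid gene (0) and 3 neighbours (2). The share of all genes at that p under the block is not given here. The rise in these counts is therefore not read as particular to the Hox genes or these lists. Deviations from the group means correlated between arrays of the same number at r = 0.54 over all genes. With 2 numbers this does not show that the samples were paired. Most Hox members were dim, which limits what could be detected for them.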
